A study of Peromyscus californicus with 17 samples.

Results

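The lungs of bond-disrupted male Peromyscus californicus (California mouse) were compared with those of bonded males by RNA-seq of whole lung tissue, over all genes whose own length could be worked out. The comparison held 12 of the 17 animals of the series, namely B1 to B6, which were bonded, and BD1 to BD6, whose bond had been disrupted, with 1 library per animal, 6 in each group. No engineered allele or drug is named for any group. Bonded males had lived with a female for 4 months and gave their lungs while still paired. Bond-disrupted males had also been paired for 4 months, and were then taken out of the mating cage, and their lungs were collected 7 days after. The 5 virgin males, of like age and kept in groups, were not part of the difference. They entered the recovery of lengths, the filter on expression, the shared estimate of the spread and the gene means behind the set scores. Animals with the same number (B1 and BD1, and so on) were siblings. Loss of the partner and removal from the home cage came together, so their effects cannot be told apart. The question was whether breaking a pair bond is followed by a shift in lung gene expression.

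The California mouse is monogamous, and both parents rear the young. Its lung is built like that of other rodents. Flat type 1 alveolar cells form the surface for gas exchange, type 2 alveolar cells make surfactant and take up sodium so that the air spaces stay thin-walled and nearly dry, and alveolar macrophages clear spent surfactant. Airways are lined by ciliated and secretory cells and wrapped in smooth muscle, which also rings the vessels, while fibroblasts lay down collagen and elastic fibres. Glucocorticoids act on most of these cells and raise surfactant and sodium channel genes. In tissue of mixed cells, fewer cells of a type and less RNA per cell cannot be told apart.

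The deposited values were FPKM, fragments per kilobase of gene and per library size. In each column the length used was that of a gene some rows away, 1 row further for every column, so that 56.9% of the values were off by more than 2-fold and the median value was off by 2.28-fold. The fragments behind the values were recovered and divided by each gene's own length before any comparison. Of 27786 genes, 25052 were recovered with their own length, and 14801 of these reached 1 FPKM in at least 1 animal and were tested, while 10251 did not. In units of 1000000 fragments, the libraries held 15.4 to 34.1 in bonded animals (median 18.4) and 21.9 to 29.7 in bond-disrupted animals (median 23.2), up to a shared factor of 2, and 12939 to 13329 genes per animal lay at 1 FPKM or more. The tissue label was borne out by its markers in all 12 animals, since Sftpc, the surfactant protein of type 2 cells, lay at 12001 FPKM or more, Ager, a type 1 cell receptor, at 1128 FPKM or more and Scgb1a1, the main secretory protein of the airway, at 49032 FPKM or more.

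Some animals stood apart from the rest. On the first principal component, which carried 24.6% of the variance, BD6 lay at 46.0 and BD2 at −28.6, with the other animals between −13.2 and 20.2. On the second, which carried 14.9%, B6 lay at 26.7 and BD6 at 26.1, with the other animals between −18.8 and 13.4. BD6 held transcripts of nerve cells, with Nefl, the light chain of the neurofilament, at 43.9 FPKM against at most 0.684 FPKM in bonded animals. BD2 held high levels of glucocorticoid targets, described further on. Values are therefore also given with BD2 and BD6 left out, a setting chosen after the data were seen, and for some sets without B6, and the part these animals played in a difference was not tested beyond that.

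No gene passed the study's threshold of an adjusted p under 0.1 with a fold change of at least 2 (0% of 14801 genes, limma with Benjamini-Hochberg adjustment). The lowest adjusted p was 0.477. With siblings as a block again 0 genes passed (0%), the lowest adjusted p being 0.792. At an unadjusted p under 0.05, 882 genes were left, of which 423 (2.86%) lay higher and 459 (3.1%) lower in bond-disrupted lungs. With the sibling block the same total of 882 split into 359 higher (2.43%) and 523 lower (3.53%), and 550 genes were shared in direction with the fit without the block. With limma's voom on the recovered reads, 206 genes lay higher and 859 lower (19.3% higher, against 48.0%), and the median gene stood at −0.04 rather than 0.0056 on the log2 scale. That fit also differed in its filter (15981 genes), its weights and its library sizes, which were the summed reads, at 96.8% to 100.2% of the solved depth in bonded and 98.9% to 103% in bond-disrupted animals, and the part of each in the split was not tested. Differences were small throughout. The median absolute log2 fold change, on the log2(FPKM + 1) scale used for all fold changes here, was 0.087 beside a median standard error of 0.12, and 24 genes differed by 2-fold or more. In simulated data with the spread of this comparison, 90% of genes changed by 2-fold reached an adjusted p under 0.1, and 66% of those changed by 1.5-fold. The changed genes were drawn from those with a mean log2(FPKM + 1) above 2, so these shares do not cover genes at lower levels. The noise was normal and independent between genes and animals, without sibling pairs or animals that stand apart.

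All 6 bond-disrupted animals lay above all 6 bonded animals for 21 genes (0.142%) and below them for 18 genes (0.122%). By sibling, 331 genes were higher in the bond-disrupted sibling of all 6 pairs (2.24%), and 290 were lower in all 6 (1.96%). These shares are the background for the counts given below.

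**Figure D1:**
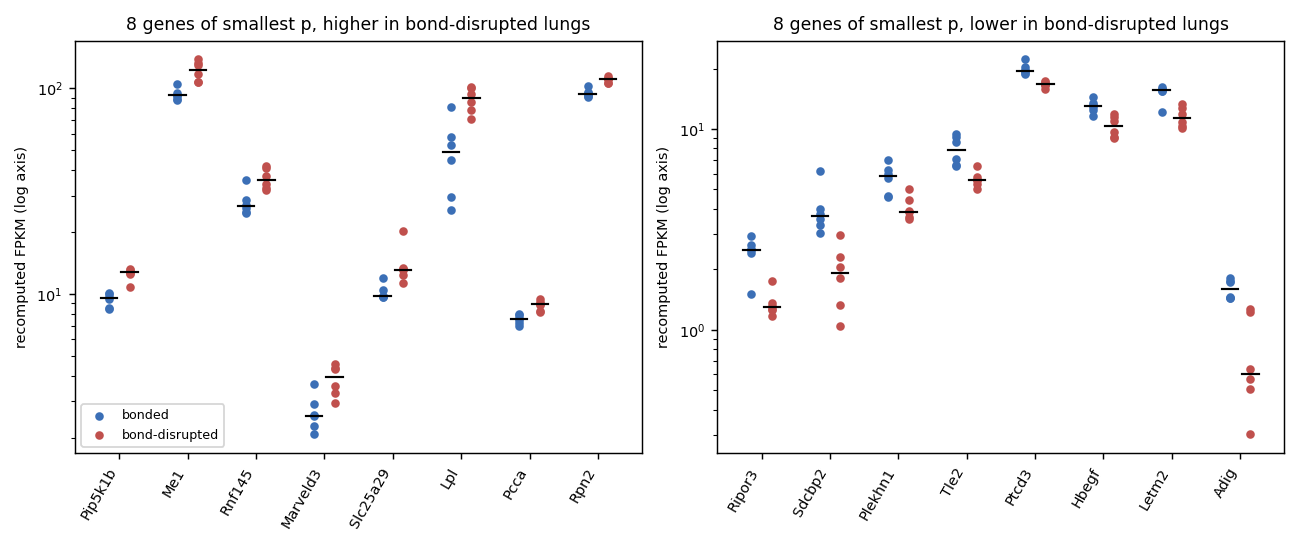
Recomputed FPKM of single animals (log axis; blue, 6 bonded; red, 6 bond-disrupted; bars, medians) for the 8 genes of smallest p in each direction. Pip5k1b, Me1, Pcca and Rpn2 lie higher in every bond-disrupted animal, and Sdcbp2, Tle2, Ptcd3 and Adig lie lower in every one, although no gene passed adjustment over all genes.

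Pip5k1b, a kinase that makes the membrane lipid PIP2, lay between 8.46 and 10.04 FPKM in bonded lungs (median 9.53) and between 10.8 and 13.1 FPKM in bond-disrupted lungs (median 12.7). The groups did not overlap, and the log2 fold change was 0.38 ± 0.073 (SE, limma, adjusted p = 0.50). Me1, malic enzyme, which supplies NADPH for fatty acid synthesis, ran from 88.0 to 105 FPKM (median 92.2) in bonded and from 107 to 138 FPKM (median 123) in bond-disrupted lungs, a log2 fold change of 0.37 ± 0.090. Every bond-disrupted animal again lay above every bonded one. Lpl, lipoprotein lipase, which frees fatty acids from circulating triglycerides, was the largest of these differences, with 25.6 to 80.6 FPKM (median 48.9) in bonded and 71.0 to 101 FPKM (median 89.6) in bond-disrupted lungs, a log2 fold change of 0.94 ± 0.25. The groups overlapped for Lpl, although each bond-disrupted animal lay above its own sibling. The limma adjusted p was 0.79 for both Me1 and Lpl.

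The other 5 genes of this set were Rnf145, a ubiquitin ligase that turns over with sterol levels (log2 fold change 0.38 ± 0.094), Marveld3, a tight junction protein (0.40 ± 0.11), Slc25a29, a mitochondrial carrier of basic amino acids (0.39 ± 0.11), Pcca, a subunit of propionyl-CoA carboxylase (0.20 ± 0.055), and Rpn2, a subunit of the oligosaccharyltransferase of the endoplasmic reticulum (0.22 ± 0.060). For Pcca the bonded animals lay at 6.97 to 8.02 FPKM and the bond-disrupted animals at 8.20 to 9.47 FPKM. For Rpn2 the ranges were 90.5 to 103 FPKM and 106 to 115 FPKM. Neither gene's groups overlapped, whereas those of Rnf145, Marveld3 and Slc25a29 did. In Slc25a29, BD2 stood at 20.1 FPKM, far above the group median of 13.1 FPKM.

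Among the genes that were lower, Ripor3 had the smallest p of all genes. It lay between 1.51 and 2.92 FPKM (median 2.51) in bonded lungs and between 1.18 and 1.76 FPKM (median 1.30) in bond-disrupted lungs, with a log2 fold change of −0.53 ± 0.093 (limma, adjusted p = 0.48). The bonded animal at the low end was B6, which sat inside the range of the bond-disrupted animals. Without B6, Ripor3 reached an adjusted p of 0.0034 in the limma fit, and it was the only gene under 0.1 in any fit that left out 1 animal, although it still fell short of 2-fold. Leaving out B6 takes away the bonded value that went most against the difference, so that p is no independent support for it. Sdcbp2, a scaffold protein that binds PIP2, lay between 3.02 and 6.16 FPKM (median 3.68) in bonded and between 1.04 and 2.98 FPKM (median 1.93) in bond-disrupted lungs, a log2 fold change of −0.78 ± 0.18. The groups did not overlap for Sdcbp2.

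Tle2, a transcriptional corepressor, lay at 6.53 to 9.49 FPKM in bonded and 5.00 to 6.53 FPKM in bond-disrupted lungs (log2 fold change −0.42 ± 0.10). Adig, a gene of fat cell differentiation, lay at 1.44 to 1.81 and 0.302 to 1.26 FPKM (−0.60 ± 0.15). Ptcd3, a protein of the mitochondrial ribosome, lay at 18.7 to 22.2 and 15.8 to 17.3 FPKM (−0.24 ± 0.059). Each of these 3 genes had groups that did not overlap. Hbegf, a growth factor of the EGF family, was at a median of 13.02 FPKM in bonded and 10.3 FPKM in bond-disrupted lungs (−0.30 ± 0.076), Letm2, a mitochondrial membrane protein, at 15.6 and 11.4 FPKM (−0.37 ± 0.092), and Plekhn1, a lipid-binding protein, at 5.86 and 3.87 FPKM (−0.40 ± 0.096). All 6 siblings were lower for Hbegf and Letm2, and 5 of 6 were lower for Plekhn1, but their groups overlapped.

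The length shift mattered most for what the deposited values would call. Tested as deposited, 40 genes passed the threshold in the same comparison, with absolute log2 fold changes from 1.77 to 6.10. Of these 40, 34 could be tested with their own lengths, where the largest absolute log2 fold change was 0.58 and 3 had an unadjusted p under 0.05. Over the 14407 genes in both fits, the median absolute log2 fold change was 0.53 as deposited and 0.085 with own lengths, and 3255 against 24 genes differed by 2-fold or more.

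**Figure D2:**
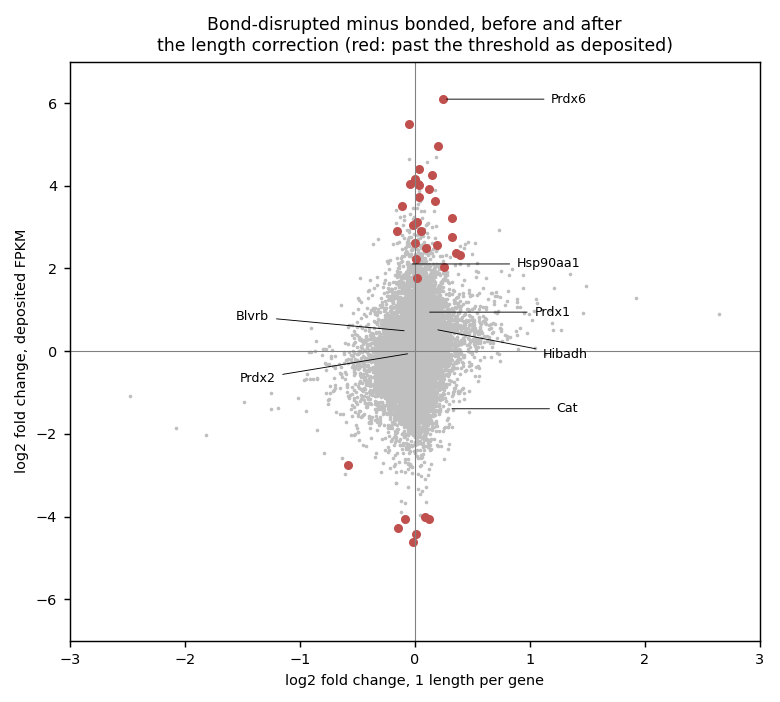
Log2 fold change of bond-disrupted minus bonded lungs for each gene with 1 length per gene (x axis) and with the deposited FPKM (y axis), both on the log2(FPKM + 1) scale; red points passed the threshold as deposited. The cloud stands upright, with deposited differences of up to 6.10 log2 units at recomputed differences near 0, and Prdx6 is the highest red point.

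The study named 7 genes that could be tested here, 6 of redox and stress biology and 1 of amino acid breakdown, chosen with lung or serum data of its own animals in view, so they are not independent evidence of a direction. Cat, Prdx1, Prdx2, Hsp90aa1 and Blvrb were named there as serum proteins, measured in older animals that had been paired for longer. Hibadh was named for bond-disrupted against virgin lungs. Lung RNA of bonded and bond-disrupted animals is therefore an unlike measure for these genes. Prdx6, a peroxiredoxin that also takes part in surfactant lipid turnover, lay between 333 and 518 FPKM (median 440) in bonded and between 358 and 738 FPKM (median 497) in bond-disrupted lungs. Its log2 fold change was 0.24 ± 0.15 with its own length (limma, adjusted p = 0.86) and 6.10 as deposited (limma, adjusted p = 0.0044). The recomputed groups overlapped. Hibadh, an enzyme of valine breakdown, was higher in all 6 bond-disrupted siblings, at 23.8 to 28.9 FPKM in bonded and 27.9 to 33.4 FPKM in bond-disrupted lungs (0.17 ± 0.065). Cat, catalase, lay at 68.8 to 98.7 FPKM and 88.1 to 135 FPKM (0.29 ± 0.14), and it had the opposite sign as deposited (−1.39). For Prdx1, Prdx2, Hsp90aa1 and Blvrb, which code for peroxiredoxins, a chaperone and a biliverdin reductase, the log2 fold changes were 0.098 ± 0.092, −0.032 ± 0.096, −0.055 ± 0.094 and −0.061 ± 0.10. Hsp90aa1 had stood at 2.11 as deposited.

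Sets of genes were then read by cell type and pathway. The sets were chosen with earlier results of these data known, so they were given no test and are not independent evidence of a direction. For each set the median log2 fold change of its tested members is given beside 0.0056 for all genes, with counts of members at an unadjusted p under 0.05 to be read against the 2.86% higher and 3.1% lower of all genes. Counts of members that were higher or lower at any p are to be read against 51.9% of all genes higher. A set score is the mean over members of log2(FPKM + 1) less the gene's mean over the 17 animals, so 0 is the average animal. In no set did any member pass adjustment over all genes, and members named for an unadjusted p under 0.05 were picked after their values were seen. Single animals moved many medians by more than 1.5 times, and the values without them are given beside these. Of the 17 sets described by gene, 16 kept the sign of their median without BD2 and BD6, the exception being nerve and Schwann cells. With sibling pairs 2 and 6 left out and the sibling block, 13 kept it, while ciliated cells stood at 0.0040, elastic fibres at 0.022, cardiac muscle at 0.052 and nerve and Schwann cells at −0.044. With voom 16 sets kept the sign, and with voom and the sibling block 17 did. The median of all genes in these 2 fits stood at −0.038 and −0.035.

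**Figure D3:**
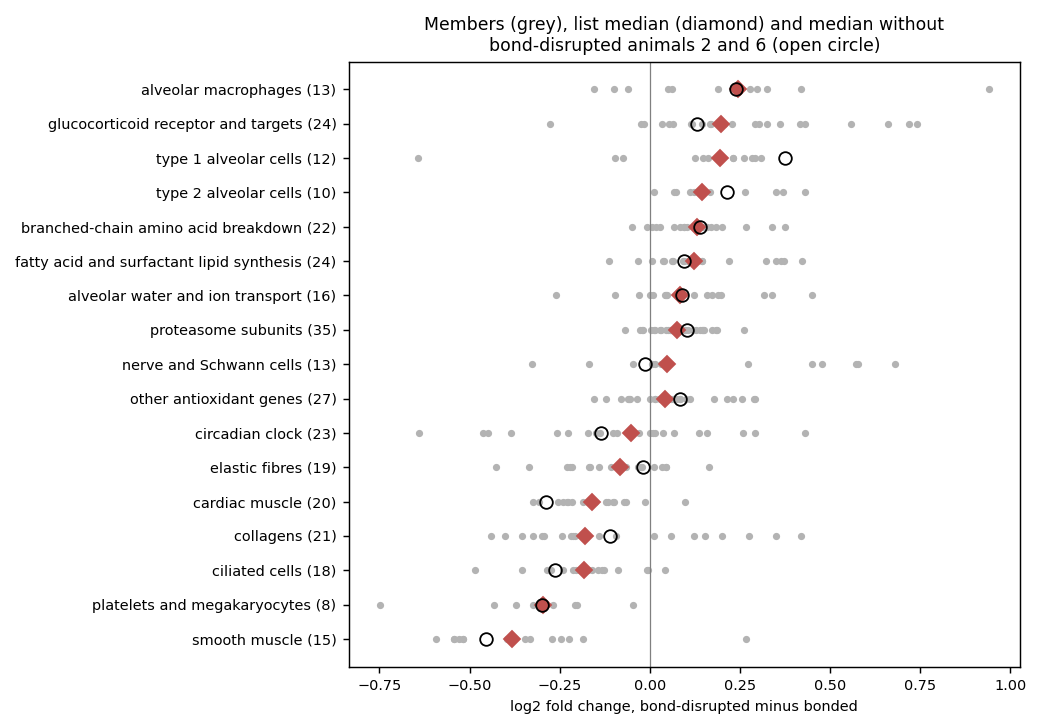
Log2 fold change (x axis, bond-disrupted minus bonded, log2(FPKM + 1) scale) of every tested member (grey), the median of the set (red diamond) and the median without BD2 and BD6 (open circle) for 17 sets, with the number of tested members in brackets. Alveolar, lipid and amino acid sets lie to the right of 0 and smooth muscle farthest to the left, and without BD2 and BD6 the median of 1 set, nerve and Schwann cells, crosses 0.

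Of the alveolar epithelium, all 10 tested markers of type 2 cells were higher in bond-disrupted lungs, with a median of 0.14 (0.21 without BD2 and BD6, 0.28 without BD2 and 0.069 without BD3), and 1 of them had an unadjusted p under 0.05 (2 without BD2 or with the sibling block, and 3 without B3). That marker was Sftpb, the surfactant protein needed for breathing at birth, at 1710 to 2710 FPKM (median 2441) in bonded and 2634 to 3808 FPKM (median 2933) in bond-disrupted lungs (log2 fold change 0.43 ± 0.14, limma, adjusted p = 0.79). Only the top of the bonded range reached into the bond-disrupted range, and all 6 bond-disrupted siblings were higher. Slc34a2, the phosphate carrier of type 2 cells, had medians of 230 and 273 FPKM (0.37 ± 0.22), and Sftpc had medians of 18998 and 22521 FPKM (0.17 ± 0.20), with ranges that overlapped widely. By score, 4 of 6 pairs of siblings were higher, with differences between −0.25 and 1.05, so the pairs did not share a direction.

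Of 12 tested markers of type 1 cells, 9 were higher, with a median of 0.20 and none at an unadjusted p under 0.05. In the fit with the sibling block, 3 members were higher at that level and none lower. By score 3 of 6 siblings were higher, with differences from −0.36 to 0.77 and a median of −0.014, whereas by summed FPKM, which the abundant markers set, 5 of 6 were higher, so the pairs gave no single direction. Emp2, a membrane protein of these cells, lay at 247 to 392 FPKM in bonded and 334 to 436 FPKM in bond-disrupted lungs (0.31 ± 0.15), higher in all 6 siblings. Ager had medians of 1488 and 1744 FPKM (0.23 ± 0.16), and Hopx, a homeodomain cofactor, medians of 689 and 873 FPKM (0.28 ± 0.19). BD2 was the lowest bond-disrupted animal for Ager, at 1413 FPKM, and BD6 the lowest for Hopx, at 475 FPKM. Without BD2 and BD6 the median over the markers was 0.37, and 4 members were at an unadjusted p under 0.05, while without B6 the median was 0.10. Igfbp2, an IGF-binding protein, ran from 0.611 to 81.1 FPKM among bonded animals alone, and its log2 fold change of −0.64 ± 1.08, which enters the score with the same weight as every other marker, gives no direction.

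Genes of alveolar water and ion transport were higher by score in every pair of siblings, and by summed FPKM in 5 of 6. Of 16 tested, 13 were higher and 2 had an unadjusted p under 0.05 (12.5%), with a median of 0.084 (0.13 without BD2 and 0.15 without B3). With the sibling block 4 members were at that level, and 1 to 4 were when 1 animal was left out. The score ran from −0.11 to 0.035 in bonded animals and from −0.026 to 0.10 in bond-disrupted animals, with sibling differences from 0.063 to 0.15. The bonded animal at the top was B3, whose sibling was the highest of the bond-disrupted animals. The 3 subunits of the epithelial sodium channel, which draws fluid out of the air space, led the set. Scnn1a lay at 15.5 to 20.7 FPKM (median 18.9) in bonded and 14.8 to 44.5 FPKM (median 26.5) in bond-disrupted lungs (0.45 ± 0.19). Scnn1b lay at 13.3 to 17.5 FPKM (median 15.2) and 15.7 to 24.6 FPKM (median 19.0), a log2 fold change of 0.32 ± 0.099. Scnn1g lay at 9.04 to 17.2 FPKM (median 12.6) and 12.1 to 19.4 FPKM (median 17.5), a log2 fold change of 0.34 ± 0.17. Adjusted p was 0.79, 0.79 and 0.84 (limma), and each subunit was higher in 5 of 6 siblings. The sodium pump subunit Atp1b1 stood at 0.20 on the log2 scale, and the water channel Aqp5 at −0.10.

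Of 24 tested genes of fatty acid and surfactant lipid synthesis, 22 were higher, 3 at an unadjusted p under 0.05 (12.5%) and none lower, with a median of 0.12 (0.096 without BD2 and BD6). The members at that level numbered 4 with the sibling block and 5 without either B3 or BD2. The score was higher in the bond-disrupted sibling of all 6 pairs, by 0.042 to 0.21, as was the summed FPKM. Besides Me1, these 3 were Lpin2, a phosphatidate phosphatase (0.36 ± 0.13), and Chpt1, which makes phosphatidylcholine (0.32 ± 0.11), both higher in all 6 siblings. Lpcat1, which remodels surfactant phosphatidylcholine, was also higher in all 6, at 74.7 to 150 FPKM in bonded and 96.9 to 219 FPKM in bond-disrupted lungs (0.35 ± 0.19). Fasn, fatty acid synthase, had medians of 43.8 and 49.0 FPKM with BD6 at 103 FPKM (0.13 ± 0.21), and Acaca, acetyl-CoA carboxylase, had medians of 8.56 and 8.77 FPKM (0.13 ± 0.15). Lpin1, the largest log2 fold change of the set at 0.42 ± 0.33, rested on BD2, which held 51.1 FPKM beside a group median of 8.97 FPKM, and was 0.021 without BD2 and BD6.

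**Figure D4:**
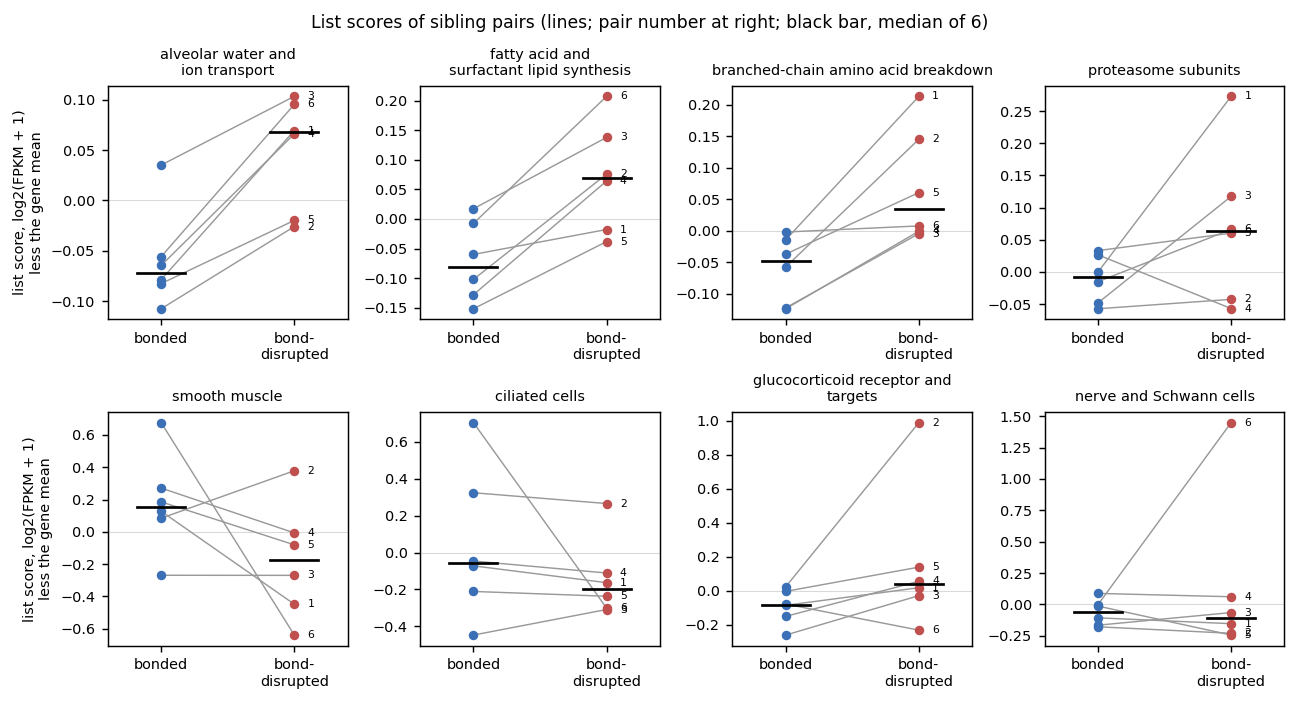
Scores of 8 sets (y axis, mean log2(FPKM + 1) of the members less each gene's mean over 17 animals) in the 6 bonded and 6 bond-disrupted animals, with a line from each bonded animal to its sibling and a bar at the median. All 6 lines slope upward for alveolar water and ion transport, for fatty acid and surfactant lipid synthesis and for branched-chain amino acid breakdown, while in nerve and Schwann cells BD6 alone stands at 1.45.

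Breakdown of the branched-chain amino acids valine, leucine and isoleucine, which takes place in mitochondria and ends in propionyl-CoA and acetyl-CoA, held the largest share of members at an unadjusted p under 0.05 among those of the 17 sets that were higher. The set was chosen with earlier results known. It includes Hibadh, named by the study, and Pcca, among the genes of smallest p above, so its rank is not independent evidence. Of 22 tested, 20 were higher, 6 at an unadjusted p under 0.05 (27.3%) and none lower, with a median of 0.13 (0.14 without BD2 and BD6). With the sibling block 4 members were at that level, and 3 to 8 were when 1 animal was left out. The score was higher in all 6 bond-disrupted siblings, by 0.0097 to 0.23, and the bonded scores ended at −0.0020 where the bond-disrupted scores began at −0.0046, so that the groups all but separated. The 6 members were Ppm1k, the phosphatase that switches on the branched-chain dehydrogenase (0.38 ± 0.15), Aldh6a1 (0.34 ± 0.14), Hibch (0.18 ± 0.081) and Hibadh, 3 steps of valine breakdown, and Pcca and Pccb, both subunits of propionyl-CoA carboxylase. Pccb lay at 25.1 to 31.5 FPKM in bonded and 28.0 to 35.0 FPKM in bond-disrupted lungs (0.16 ± 0.069). Both Pcca and Pccb, and Hibch and Hibadh, were higher in all 6 siblings.

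For Ppm1k BD2 was highest at 8.49 FPKM beside a group median of 4.53 FPKM, and the bonded animals lay at 2.86 to 4.26 FPKM. At the head of the pathway, Bcat2, the mitochondrial aminotransferase, had medians of 10.9 and 11.3 FPKM (0.085 ± 0.098), and Bckdha, a subunit of the dehydrogenase, medians of 41.5 and 41.6 FPKM (0.096 ± 0.084), while Dbt and Dld, other subunits of that complex, stood at 0.15 and 0.10. Among other sets of mitochondria, the citric acid cycle stood at a median of 0.023, with 18 of 25 members higher and none at an unadjusted p under 0.05, fatty acid oxidation at 0.025, with 1 of 24 at that level (4.17%), and subunits of oxidative phosphorylation at −0.053, with 18 of 56 higher and 1 at that level (1.79%; 3 without BD2 and BD6, while 5 were lower without BD1). When 1 animal was left out these medians ran from 0.0049 to 0.067, 0.0065 to 0.057 and −0.12 to −0.0045, and that of oxidative phosphorylation was 0.021 without BD2 and BD6. The 1 fatty acid oxidation gene at that level was higher, while 1 was higher and 2 lower with the sibling block. Without BD2 and BD6, 2 were higher and 2 lower.

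Proteasome subunits form the particle that degrades ubiquitin-tagged proteins. Of 35 tested, 31 were higher, 5 at an unadjusted p under 0.05 (14.3%) and none lower, with a median of 0.075, and 7 were higher in all 6 siblings. Without BD2 and BD6 the median was 0.10 and 8 members were at that level, against 3 with the sibling block and 4 to 8 when 1 animal was left out. The 5 members were Psmd3 (0.26 ± 0.081), Psmd7 (0.19 ± 0.079), Psmd11 (0.15 ± 0.052), Psmd12 (0.15 ± 0.062) and Psmc1 (0.17 ± 0.064), all subunits of the regulatory particle. Psmd7 lay at 46.5 to 52.9 FPKM in bonded and 53.1 to 68.7 FPKM in bond-disrupted lungs, and Psmd11 at 27.9 to 29.6 and 29.9 to 34.1 FPKM. For these 2 genes the groups did not overlap. Of the core particle, Psma1, Psma2 and Psma3 stood at 0.095, 0.11 and 0.13, and Psmb5, the lowest of the set, at −0.07. By score, 5 of 6 pairs were higher, BD4 being the exception, and by summed FPKM 4 of 6 were. The highest animal was BD1 at 0.27, and without BD1 the median over the set, at 0.036, was the lowest of any fit that left out 1 animal. The median fell to 0.034 under quantile normalization.

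Of 27 tested antioxidant genes other than peroxiredoxins, 20 were higher and 3 were at an unadjusted p under 0.05 (11.1%), with a median of 0.043 (0.021 without B4 and 0.085 without BD2 and BD6). In the fit with the sibling block 4 were higher at that level, and 0 to 3 were when 1 animal was left out, with none left without BD3. The 3 were Cat, Txnrd1, thioredoxin reductase (0.18 ± 0.073), and Pgd, which supplies NADPH in the pentose phosphate pathway (0.21 ± 0.096). Sod1 and Sod2, the cytosolic and mitochondrial superoxide dismutases, stood at 0.043 ± 0.11 and 0.29 ± 0.34, the latter with values from 30.5 to 80.2 FPKM in bonded and 31.6 to 145 FPKM in bond-disrupted lungs.

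Targets of the glucocorticoid receptor were mostly higher, and BD2 stood far above the other animals. Of 24 tested, 21 were higher, 2 at an unadjusted p under 0.05 (8.33%), with a median of 0.20 that was 0.078 without BD2, 0.34 without BD6 and 0.13 without both. Only 1 member was at that level in the fit with the sibling block, and 1 to 4 were when 1 animal was left out. The score of BD2 was 0.99, whereas the bonded animals lay between −0.26 and 0.024 and the median of the bond-disrupted animals was 0.037. Ddit4, an inhibitor of mTOR that stress hormones induce, stood at 229 FPKM in BD2 and at 17.9 to 28.9 FPKM in the other bond-disrupted animals, beside 13.4 to 25.3 FPKM in bonded animals (log2 fold change 0.74 ± 0.53, and 0.26 without BD2 and BD6). Zbtb16, another induced gene, stood at 52.3 FPKM in BD2 and at 2.82 to 9.93 FPKM in bonded animals (0.72 ± 0.44). Fkbp5, a chaperone in the feedback on the receptor, showed the same animal at 33.2 FPKM beside a group median of 9.36 FPKM (0.56 ± 0.31). The receptors themselves, Nr3c1 and Nr3c2, stood at 0.064 ± 0.091 and 0.12 ± 0.093. The 2 members at an unadjusted p under 0.05 were Lcn2, lipocalin 2, also a neutrophil granule gene, at 14.7 to 23.4 FPKM (median 19.6) in bonded and 19.1 to 49.5 FPKM (median 28.8) in bond-disrupted lungs (0.66 ± 0.19), and Errfi1, a brake on the EGF receptor (0.42 ± 0.19). The difference in Lcn2 was 0.41 without BD2 and BD6. By score, 5 of 6 siblings were higher.

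Genes of the circadian clock gave counts that changed with the animals included. Of 23 tested, 9 were higher, and the median was −0.051 (−0.14 without BD2 and BD6, −0.0068 without BD1 and −0.090 without B4). Bmal1, the activator of the clock, lay at 0.799 to 2.02 FPKM (median 1.34) in bonded and 1.34 to 3.71 FPKM (median 2.02) in bond-disrupted lungs (0.43 ± 0.18). Ciart, a repressor, was lower in all 6 siblings, at 2.96 to 5.21 FPKM (median 3.45) in bonded and 1.72 to 3.89 FPKM (median 2.22) in bond-disrupted lungs (−0.46 ± 0.17). Dbp, an output gene, had medians of 74.9 and 60.1 FPKM (−0.64 ± 0.31), and was lower in 5 of 6 siblings. Csnk1d, a kinase of the clock, was the third member at an unadjusted p under 0.05 (0.14 ± 0.055), and Clock, the partner of Bmal1, stood at 0.16 ± 0.10. At that level stood 2 higher and 1 lower member in the fit of all animals, 4 lower and none higher with the sibling block or without BD2, 2 higher and 3 lower without BD6, and 1 higher and 5 lower without both. The hour at which each lung was taken is not given in the sources used here, so its part in these values was not tested.

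Markers of smooth muscle were lower, the largest median shift of the 17 sets. Of 15 tested, 14 were lower, 5 at an unadjusted p under 0.05 (33.3%), with a median of −0.38. The 5 were Myh11, smooth muscle myosin, Myl9, a myosin light chain, Acta2 and Actg2, the smooth muscle actins, and Synpo2, an actin-binding protein. Myl9 lay at 165 to 360 FPKM (median 278) in bonded and 132 to 224 FPKM (median 182) in bond-disrupted lungs (−0.54 ± 0.18, limma, adjusted p = 0.79). Acta2 lay at 208 to 472 FPKM (median 335) and 118 to 372 FPKM (median 233), a log2 fold change of −0.54 ± 0.24. Myh11 lay at 52.2 to 110 FPKM (median 72.9) and 29.8 to 96.1 FPKM (median 51.9), a log2 fold change of −0.59 ± 0.24. The ranges overlapped for each gene, and 5 of 6 siblings were lower for all 3. Tagln, another contractile protein, was at −0.34 ± 0.25, and Hhip, an inhibitor of Hedgehog signalling, was the 1 member that was higher (0.27).

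The score of the smooth muscle set had an SD of 0.33 between animals of a group. It ran from −0.27 to 0.68 in bonded animals and from −0.64 to 0.38 in bond-disrupted animals, with 5 of 6 siblings lower. The largest sibling difference, −1.32, was between BD6, the lowest of all 12 animals, and B6, the highest. Without BD6 the median was −0.30 and 1 member was at an unadjusted p under 0.05, and with BD2 and BD6 both out it was −0.46 with 4 members. With the sibling block 1 member was lower and 1 higher at that level, and 1 to 11 were lower when 1 animal was left out, the most without BD2. By summed FPKM 4 of 6 siblings were lower. How much airway and large vessel each piece of lung held is not given in the sources used here and was not tested.

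Of 21 collagens, the fibre proteins of the extracellular matrix, 8 were higher and 13 lower, with a median of −0.18 (−0.11 without BD2 and BD6, and −0.090 without BD2). Col6a1, of the collagen VI microfibrils, was the 1 member at an unadjusted p under 0.05 (4.76%), at 35.9 to 62.9 FPKM (median 41.4) in bonded and 25.4 to 42.9 FPKM (median 32.5) in bond-disrupted lungs (−0.40 ± 0.15). At that level 6 collagens were lower without B3 and 5 without BD5, and 2 were higher and 2 lower without B1. Without BD2 and BD6, 1 was higher and none lower. The fibrillar chains Col1a1 and Col1a2 stood at −0.21 ± 0.19 and −0.24 ± 0.14, Col15a1, of basement membranes, at −0.44 ± 0.25, and Col5a3 at 0.42 ± 0.24, so the family did not share a direction. Of 19 elastic fibre genes, 5 were higher, with a median of −0.082 that was −0.018 without BD2 and BD6, −0.022 without BD6 and −0.16 without B3. Ltbp2 and Ltbp3, of the family of latent TGF-beta-binding proteins on microfibrils, were the members at an unadjusted p under 0.05 (10.5%; 1 to 4 members when 1 animal was left out, the most without B3, and 3 with the sibling block), and both were lower in all 6 siblings. Ltbp2 lay at 8.69 to 13.9 FPKM (median 10.6) in bonded and 6.28 to 11.4 FPKM (median 7.40) in bond-disrupted lungs (−0.43 ± 0.13), and Ltbp3 had medians of 44.1 and 39.3 FPKM (−0.22 ± 0.098). Mfap4 stood at −0.33 ± 0.19, and elastin itself, Eln, at 0.012 ± 0.24, with BD6 lowest at 20.9 FPKM beside a group median of 46.4 FPKM.

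Markers of ciliated airway cells were lower in 17 of 18 tested, with a median of −0.18. Dnai1, a motor protein of the ciliary axoneme, was the 1 member at an unadjusted p under 0.05, at 2.68 to 6.53 FPKM (median 3.75) in bonded and 1.94 to 3.37 FPKM (median 2.49) in bond-disrupted lungs (−0.48 ± 0.19), lower in all 6 siblings. Tppp3 was also lower in all 6 siblings (−0.35 ± 0.20), whereas Foxj1, the master regulator of cilia, stood at −0.20 ± 0.35 and Dnah5 at −0.13 ± 0.18. The set score spread from −0.45 to 0.70 among bonded animals alone, and the difference between B6, at the top, and its sibling was −1.005. The median was −0.28 without B3 and −0.037 without B6, and 3 members were lower at that level with the sibling block, 2 without B3, BD1 or BD2 and none without B6. The 5 tested markers of club and goblet cells were all lower, with a median of −0.13 and none at an unadjusted p under 0.05. That median was −0.46 without B3, 0.076 without B6, and 0.21 with sibling pairs 2 and 6 left out and the block.

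Among blood and immune cells, only platelets and alveolar macrophages had medians beyond 0.2 in size. All 8 tested platelet genes were lower, with a median of −0.29, and 2 were at an unadjusted p under 0.05 (25.0%), among them Nrgn, a calmodulin-binding protein (−0.37 ± 0.17). Bonded animal B4 was the highest for platelet genes, with Tubb1, the platelet tubulin, at 33.8 FPKM beside a bonded median of 7.58 FPKM, and Ppbp, a platelet chemokine, at 176 FPKM beside 33.0 FPKM. Tubb1 stood at −0.75 ± 0.47, Ppbp at −0.43 ± 0.57 and Gp9, a platelet glycoprotein, at −0.21 ± 0.38. Without B4 the median of the platelet genes was −0.056. At an unadjusted p under 0.05, no platelet gene was left without BD2 and BD6, 1 with the sibling block and 0 to 3 when 1 animal was left out. Of 13 markers of alveolar macrophages tested, 10 were higher, with a median of 0.24, and Lpl was the 1 member at an unadjusted p under 0.05 (2 with the sibling block or without BD2). Fabp4, a fatty acid carrier that fat cells and capillaries also express, stood at 0.42 ± 0.41, Ctsd and Ctsk, lysosomal proteases, at 0.063 ± 0.26 and −0.16 ± 0.22. By score 3 of 6 siblings were higher, so this set had no direction across pairs, and its median was 0.093 without B6 and 0.14 without BD6.

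Markers of B cells, T cells and interstitial macrophages and monocytes stood at medians of −0.065, −0.067 and −0.0024, dendritic cells at −0.026, and natural killer and cytotoxic cells at −0.12. None of their members was at an unadjusted p under 0.05. Leaving out 1 animal moved these medians from −0.21 to 0.16 in B cells, −0.20 to 0.069 in T cells, −0.19 to 0.090 in interstitial macrophages and monocytes, −0.11 to 0.069 in dendritic cells and −0.28 to −0.0061 in natural killer and cytotoxic cells. Neutrophil markers stood at a median of 0.056, with 5 of 9 higher and Lcn2 at that level (11.1%). They held 2 such members with the sibling block and 3 without BD2 and BD6, where the median was 0.14, the median was 0.00057 without B6, and by score 5 of 6 siblings were higher. Genes of inflammatory cytokines and alarmins stood at −0.056 and complement at 0.069, also without a member at that level, with medians of −0.088 to 0.033 and −0.065 to 0.15 when 1 animal was left out. Endothelial markers stood at 0.025 for capillary and general markers (−0.037 to 0.13; 1 of 18 was higher at that level, 5.56%, and none with the sibling block) and 0.061 for arterial, venous and lymphatic markers (−0.014 to 0.11).

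Cardiac muscle genes, which in rodents also come from the sleeve of heart muscle around the pulmonary veins, had a set score from −1.18 to 1.23 in bonded and from −0.72 to 0.33 in bond-disrupted animals. Of 20 tested, 19 were lower, with a median of −0.16 and none at an unadjusted p under 0.05. Actc1, cardiac actin, ran from 5.46 to 65.3 FPKM in bonded and 10.8 to 25.7 FPKM in bond-disrupted lungs (−0.32 ± 0.43), and Pln, phospholamban, stood at −0.31 ± 0.45. The light chains Myl3 and Myl4 stood at 0.098 ± 0.25 and −0.12 ± 0.41. Without B6, whose score was the highest, the median of the set was 0.072, and it was −0.29 without BD2 and BD6 and −0.46 without B3.

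Nerve and Schwann cell genes set BD6 apart. Its score was 1.45, while the other 11 animals lay between −0.24 and 0.088. Nefl stood at 43.9 FPKM and Nefm, the medium neurofilament, at 10.4 FPKM in BD6, beside at most 0.164 and 0.0224 FPKM in the other bond-disrupted animals. Mbp, a protein of the myelin sheath, did not follow them, at 1.39 to 4.33 FPKM over the bond-disrupted animals and a log2 fold change of 0.032 ± 0.17. The median of 13 tested members was 0.049, and −0.012 without BD2 and BD6, −0.0086 without BD4 and 0.22 without B6.

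The study also listed genes of heart development and of the hypoxia response, chosen on these samples, so their counts are not independent evidence of a direction. They came from clustering the most variable genes over bonded, bond-disrupted and virgin lungs, which is not the contrast read here. Of 14 listed hypoxia genes tested, 7 were higher and 7 lower, with a median of 0.0097 and none at an unadjusted p under 0.05. Of 24 heart development genes, 14 were higher, with a median of 0.011, and 1 was at that level, Tbx3, a T-box factor, which was lower (−0.34). A wider set of 19 targets of hypoxia-inducible factor stood at a median of 0.043, with 1 higher member at that level (5.26%). Cytosolic ribosomal proteins stood at −0.0097 with 34 of 75 higher, cell cycle genes at −0.048, heat shock proteins and chaperones at −0.0082 and the unfolded protein response at −0.0019. At an unadjusted p under 0.05, 2 of 27 heat shock proteins and chaperones were higher (7.41%; none with the sibling block, and 0 to 3 when 1 animal was left out), as was 1 of 23 genes of the unfolded protein response (4.35%), and no ribosomal or cell cycle gene was at that level. When 1 animal was left out, the medians of these 7 sets lay between −0.12 and 0.069, and the targets of hypoxia-inducible factor stood at −0.038 without BD2 and BD6.

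Siblings resembled each other across the groups. After each animal's deviation from its group mean was taken over all 14801 genes, the mean Pearson r of the 6 sibling pairs was 0.22 and that of all other bonded with bond-disrupted pairs was −0.044, a difference of 0.26. Over all 720 ways to pair the animals, an exact one-sided permutation test gave p = 0.0042, where the smallest possible p was 0.0014. The pairs differed among themselves, at r = 0.20, 0.12, 0.41, 0.12, 0.43 and 0.035 for pairs 1 to 6. In each direction, 4 of 6 animals were most like their own sibling. In the deposited values the difference was 0.0092 (exact permutation p = 0.19), a likeness that passed 0.05 only with the lengths corrected. In a limma fit of the 12 animals, 17 genes differed between sibling numbers at an adjusted p under 0.1, against 0 genes between bonded and bond-disrupted animals.

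**Figure D5:**
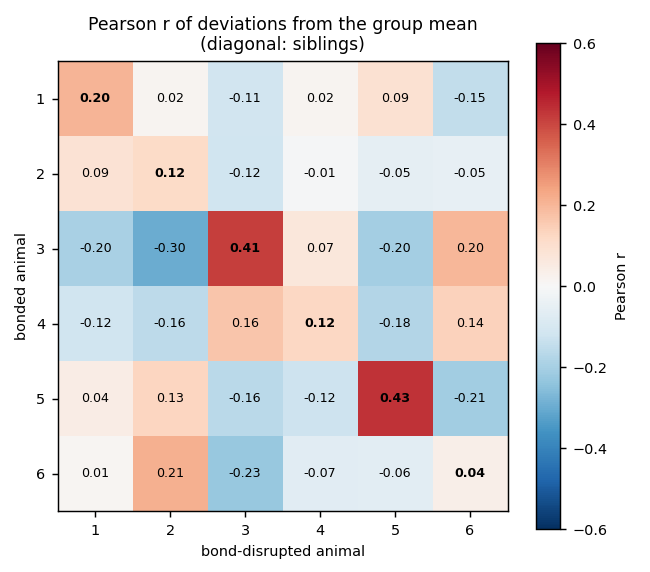
Pearson r between the deviations of each bonded animal (vertical axis, B1 to B6) and each bond-disrupted animal (horizontal axis, BD1 to BD6) from their group means, over all 14801 tested genes with 1 length per gene. The diagonal holds the siblings, with the highest values in pairs 5 and 3 (0.43 and 0.41) and the lowest in pair 6 (0.035).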

How the data were processed

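Lung RNA of 17 animals was sequenced, 1 library each, from 1 µg of total RNA with a strand-specific kit (NEBNext Ultra II Directional). The submitters' processing notes name FastQC, Trim Galore 0.4.5, STAR 2.7.2, SAMtools 1.5, featureCounts and Subread 1.5.3, and the genome build is not given in the sources used here. The authors deposited FPKM, scaled to gene length and library size, with 1 column per animal and 0 columns left over.

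Each column had been divided by the length of a gene above, 1 row further up per column. The depths and lengths were therefore searched jointly for values that turn every FPKM back into a whole number of fragments. Of 27787 lengths sought, 26638 were settled. Among 1543 genes of small RNAs, 99.0% of the lengths equalled those of RefSeq (assembly ASM782708v3, used for names and lengths only), and 98.7% of 329781 values lay within 0.01 of a whole step, a step being a fragment or 0.5 fragment, which is why depth is known up to a factor of 2. The recovered fragments summed to 96.8% to 103% of the depth solved. In 2734 genes the values could not be recovered, and these genes are not analysed here. Depth limits low genes most, and the shares of set members are given without intervals for counting error.

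Recomputed FPKM were analysed as log2(FPKM + 1) in limma 3.58.1 (R 4.3.3), after the study's methods, with the 3 groups in 1 fit, no trend, genes at 1 FPKM or more in at least 1 animal, two-sided tests and Benjamini-Hochberg adjustment over all genes. Genes of at least 2-fold difference whose adjusted p was under 0.1 were called. Other steps used Python 3.11.15 with numpy 2.4.6, pandas 2.3.3, numba 0.67.0 and matplotlib 3.10.9. Groups come from the labels and siblings from the study's text. Deviations from the group means correlated above 0.1 in 5 of the 6 sibling pairs, and since kinship makes the pairs, a replicate block of sibling number was fitted as well. The p-values measure the spread between animals.

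The recovery was tested on simulated data made with all 27786 genes, in which 99.8% of settled lengths were right. In the simulated comparison of bond-disrupted with bonded lungs (14801 genes, 50 changed at each size), 36% of genes changed by 2-fold, 98% of those changed by 3-fold and 100% of those changed by 4-fold were called, with 0 false calls.

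The 64 gene lists and the comparison were chosen with earlier results of these data known. Of the 1377 genes in these lists, 1032 were tested. For 17 lists, the 2 members of largest difference and the markers listed first are named, with the 8 genes of smallest p in each direction and the genes the study names. Other lists are given by counts and medians. Most members enter only these counts, and a few results are not reported here. Symbols were matched without regard to case.

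Alternatives were pseudocounts of 0.1 and 0.01, no filter, a mean of at least 1 FPKM, a trend, only the 12 animals with and without the sibling block, a median-ratio factor, quantile normalization, voom on recovered reads with a mean of at least 10, deposited FPKM, an adjusted p under 0.05, and leaving out each animal.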

Additional observations from a re-analysis of the deposited data

Results flagged for a closer look

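Of 202 groups of 6 animals checked, 30 held an animal whose gap to its nearest neighbour was a larger part of the group's range than Dixon's critical value for 6 animals, where chance gives about 1 in 20. BD2 was the highest bond-disrupted animal in 9 of them, for the scores of glucocorticoid receptor and targets (0.99) and of ciliated cells (0.27), and for the FPKM of Ddit4 (229), Lpin1 (51.1), Zbtb16 (52.3), Slc25a29 (20.1), Ppm1k (8.49), Bckdha (55.9) and Ripor3 (1.76). BD6 was the highest for the score of nerve and Schwann cells (1.45) and for Nefl (43.9 FPKM), Nefm (10.4 FPKM) and Fasn (103 FPKM), and the lowest for Eln (20.9 FPKM). BD5 was the lowest for Pip5k1b (10.8 FPKM) and the highest for Ltbp2 (11.4 FPKM).

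In bonded lungs, B3 was the highest for the score of alveolar water and ion transport (0.035) and for Rnf145 (35.7 FPKM), Fasn (76.0 FPKM) and Sod2 (80.2 FPKM), and the lowest for the score of elastic fibres (−0.38). B6 was the highest for Slc25a29 (11.9 FPKM), Sdcbp2 (6.16 FPKM) and Myl4 (26.7 FPKM) and the lowest for Ripor3 (1.51 FPKM). B4 was the highest for Tubb1 (33.8 FPKM) and Ppbp (176 FPKM). B1 was the lowest for Letm2 (12.2 FPKM) and the highest for Col5a3 (3.86 FPKM) and Nefm (0.038 FPKM).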

How the results depend on the processing

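The absence of calls (0 genes) held under each alternative except the deposited FPKM, which called 40. Counts at an unadjusted p under 0.05 moved by over 1.5 times as follows: 637 higher and 729 lower with no filter, where 22376 rather than 14801 genes were tested, 206 higher and 859 lower with voom, 921 lower with voom and the sibling block, 700 higher as deposited (18602 genes), and 636 higher without BD2 and BD6. Genes whose groups did not overlap numbered 96 as deposited. Leaving out 1 animal gave 282 to 605 higher and 330 to 628 lower genes, with 0 calls each time. The replicate block of paired siblings gave 0 calls, 359 higher and 523 lower genes, and changed no call. The likeness of siblings was 0.0092 as deposited and 0.21 to 0.34 without each pair in turn. The settings without BD2 and BD6, without pairs 2 and 6, and voom with the block were chosen after seeing the data.

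Of the log2 fold changes of 84 named genes, these changed sign. As deposited they were Pip5k1b −0.022, Me1 −0.97, Rnf145 −0.26, Marveld3 −0.047, Pcca −0.23, Plekhn1 0.50, Letm2 1.05, Sftpc −0.30, Igfbp2 1.13, Emp2 −0.088, Ager −0.35, Fasn −0.53, Bcat2 −0.20, Bckdha −2.14, Psmd7 −1.74, Cat −1.39, Sod2 −1.61, Ddit4 −0.24, Zbtb16 −0.039, Nr3c1 −0.73, Nr3c2 −0.19, Myl9 0.62, Tagln 1.05, Col5a3 −0.35, Col1a1 0.19, Ltbp2 0.33, Dnah5 0.45, Ctsd −0.37, Mbp −0.27, Hsp90aa1 2.11 and Blvrb 0.49, where lengths belong to other genes. Without BD2 and BD6 they were Acaca −0.015, Nefl −0.22, Nefm −0.012, Mbp −0.082, Blvrb 0.0076 and Prdx2 0.050. With sibling pairs 2 and 6 left out and the replicate block they were Acaca −0.032, Fasn −0.080, Foxj1 0.062, Nefl −0.18, Nefm −0.016, Mbp −0.20, Actc1 0.041, Myl4 0.27, Hsp90aa1 0.063 and Prdx2 0.099. With voom they were Eln −0.027, Mbp −0.014 and Myl3 −0.25, and Eln −0.021 with the block as well. Myl3 was −0.51 and −0.047 at pseudocounts of 0.01 and 0.1, and Eln −0.015 after quantile normalization, where Sftpc was 0. The ranges when 1 animal was left out were Acaca −0.014 to 0.23, Blvrb −0.11 to 0.033, Ctsd −0.089 to 0.22, Eln −0.14 to 0.20, Fasn −0.058 to 0.26, Fbn1 −0.16 to 0.069, Foxj1 −0.36 to 0.042, Gp9 −0.42 to 0.046, Mbp −0.056 to 0.18, Myl3 −0.12 to 0.27, Myl4 −0.42 to 0.22, Nefl −0.21 to 0.87, Nefm −0.0060 to 0.70, Ppbp −0.83 to 0.060, Prdx2 −0.082 to 0.026 and Sod1 −0.019 to 0.097. Apart from the deposited values, the cause was not tested. Of 1664 medians of lists recomputed under alternatives, 46 moved by more than the spread between animals.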

Other observations

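Some gene groups not described gene by gene above held a member at an unadjusted p under 0.05, named after their values were seen. Of 8 tested markers of fat cells, 7 were higher in bond-disrupted lungs, with a median log2 fold change of 0.18 (0.11 without BD2, and 0.095 without BD2 and BD6), and Pnpla2, the lipase that opens stored triglycerides, lay at 50.2 to 55.7 FPKM in bonded and 56.6 to 114 FPKM in bond-disrupted lungs (0.36 ± 0.14, limma). The groups did not overlap for Pnpla2. Nos3, the nitric oxide synthase of the endothelium, stood at −0.52, Gpihbp1, which holds lipoprotein lipase on the capillary wall, at 0.61, and Abca1, a cholesterol exporter, at 0.47. Etfdh, which passes electrons from fatty acid and branched-chain amino acid oxidation to the respiratory chain, stood at 0.21, and Eif2ak3, a sensor of the unfolded protein response, at 0.22. No limma adjusted p among these genes was under 0.1.

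Gene lists not yet described were these. Of 8 markers of neuroendocrine and tuft cells, 6 were higher, with a median of 0.25 (0.15 without BD2), and Syp, a protein of secretory vesicles, was the 1 member at an unadjusted p under 0.05 (0.58 ± 0.25, limma), with 4 of 6 sibling scores higher. When 1 animal was left out, 0 to 3 members were at that level. In brackets is the range of each median when 1 animal was left out. Pericytes stood at −0.15 (−0.24 to −0.030, the latter without BD6), with 7 of 8 lower and −0.058 without BD2 and BD6. Fibroblasts stood at −0.093 (−0.15 to −0.046), with 0.022 without BD2 and BD6, and airway cartilage at −0.061 (−0.22 to −0.019), with −0.32 without BD2 and BD6. Skeletal muscle stood at −0.095 (−0.16 to −0.0088, the latter without B6) and mesothelium at 0.060 (−0.0070 to 0.099). Plasma cells stood at 0.00082 (−0.092 to 0.12), mast cells, basophils and eosinophils at 0.052 (−0.017 to 0.098), and erythroid cells at 0.042 (0.026 to 0.14), with 10 of 13 higher and 0.16 without BD2 and BD6. The 1 tested marker of basal airway cells stood at 0.13 (−0.049 to 0.39) and the 2 of thymus, thyroid and oesophagus at 0.064 (−0.035 to 0.13). None of the lists from pericytes onward held a member at an unadjusted p under 0.05, while with the sibling block 2 pericyte markers were lower at that level.

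Interferon response genes stood at a median of 0.091 (−0.031 without B6), with 15 of 23 higher. Antigen processing and presentation stood at 0.063 (0.023 without BD3 and 0.13 without BD2), glycolysis at 0.052 (0.0997 without B6) and cholesterol synthesis and uptake at 0.099 (0.0074 without BD6 and 0.15 without BD2). These 4 lists held 1 higher member each at an unadjusted p under 0.05 (0 to 2 when 1 animal was left out), namely Rsad2, an antiviral enzyme (0.40), Canx, a chaperone of the endoplasmic reticulum (0.13), Pfkl, a phosphofructokinase (0.21), and Abca1. Lung lineage transcription factors stood at −0.044 (−0.096 without BD2 and 0.017 without B6), with Klf5 higher (0.22) and Tbx3 lower at that level, and vasoactive factors at 0.026 (−0.081 without BD2 and 0.11 without BD6), with Nos3 lower. Without BD6 no vasoactive factor was lower at that level and 1 was higher, and with the sibling block 1 was higher and 1 lower. Peroxiredoxins stood at 0.026 (−0.032 to 0.074 when 1 animal was left out), hypoxia-inducible factors and their regulators at 0.068 (0.0070 without BD6), immediate early genes at 0.031 (−0.040 to 0.026), social and steroid hormone receptors at 0.0069 (−0.030 to 0.060), adrenergic receptors at −0.043 (−0.14 to 0.053), lung cancer drivers and suppressors at 0.015 (−0.0041 to 0.029) and p53 targets at −0.023 (−0.098 to 0.017), and none of these 7 lists held a member at that level with all animals in the fit without the block.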
